A study of Mus musculus with 2 samples.

Results

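Angpt1, Angpt2, Angptl1, Angptl2, Angptl4, Vegfa, Vegfb and Vegfc, 8 of the 28692 features counted, were followed across the mesenchymal stromal cells (MSC) of grafted mouse intestine. These secreted regulators of blood and lymphatic vessels were taken by gene symbol and were chosen by their levels in these same libraries, which had been seen to differ between stromal classes and between grafts. Their levels are therefore a description and carry no test. The grafts belong to a study of how the stromal subsets of the adult intestine arise from embryonic precursors. Pieces of embryonic gut, labelled as from EYFP (C57BL/6) mice and by the study's methods from EYFP sires and C57BL/6Nrj dams, either small intestinal (SI) or large intestinal (LI), grew for 4 weeks beneath the capsule of the kidney in wild-type adult hosts. Live cells that were positive for YFP and Itgb1 and negative for CD45, Ter119, BP3, CD31, EpCAM and L1CAM were sorted, a gate set to leave out haematopoietic, endothelial, epithelial and glial cells. Immune cells (41 LI and 21 SI cells) and 47 SI epithelial cells were nevertheless found among the sorted cells. Each graft type gave 1 library, LI grafts had been pooled, and cells of both sexes were found in both libraries. With 1 library per group there is no replicate check and no p-value was computed. All intervals below are 95% intervals that cover counting error only.

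The deposited values are raw counts of unique molecular identifiers (UMIs), each standing for 1 captured transcript. The LI library held 63348069 UMIs on 11568 cell barcodes and the SI library 54918006 UMIs on 9631 barcodes, and 26 barcodes occurred in both. After filtering, 8882 LI cells (median 5146.5 UMIs) and 7259 SI cells (median 5547 UMIs) remained. The labels name a 3′ and a 5′ kit without saying which library was made with which, so kit and graft type cannot be told apart in any comparison between LI and SI. Levels are given as CPM, the UMIs of a gene in a class for every 1000000 UMIs of that class. A share of cells with a UMI is given first for cells thinned to 2000 UMIs each and then for the cells as sequenced.

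Angiopoietins are ligands of the receptor tyrosine kinase Tek (Tie2) on endothelial cells. Angpt1 activates Tek and stabilises vessels, whereas Angpt2 can act as a context-dependent antagonist and is known from sites of vessel remodelling. Angiopoietin-like proteins resemble angiopoietins in structure but do not bind Tek, and Angptl4 is best known as an inhibitor of lipoprotein lipase that is induced by fasting, PPAR receptors and hypoxia. Vegfa is the main growth factor for blood vessels, acts through Kdr and Flt1, and is a classical target of hypoxia-inducible factors. Vegfb binds Flt1 and the coreceptor Nrp1, and Vegfc acts through Flt4 to drive the growth of lymphatic vessels, including the lacteals of the intestinal villus. In adult intestine, stromal cells around capillaries and lacteals are among the sources of these ligands.

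All 8 are protein-coding genes, found by their Ensembl identifiers in the GENCODE vM21 annotation of mm10. Angpt1 lies at chr15:42424723-42676977 (minus strand), Angpt2 at chr8:18690263-18741562 (minus), Angptl1 at chr1:156838562-156861078 (plus) and Angptl2 at chr2:33216069-33247717 (plus). Angptl4 lies at chr17:33773750-33781830 (minus), Vegfa at chr17:46016993-46032369 (minus), Vegfb at chr19:6982473-6987651 (minus) and Vegfc at chr8:54077606-54187096 (plus). RefSeq promoter entries of GRCm38.p6, each of 300 bases, matched 5 of the 8 genes (Angptl1, Angptl2, Vegfa, Vegfb and Vegfc), with 6 entries in all because Vegfa has 2. The stretches of 250 bases before the start of Angptl2 and before the outer start of Vegfa are printed here, because Angptl2 was the gene with the same clear class pattern in both grafts and Vegfa a gene whose leading class differed between them. They are written 5′ to 3′ on the strand of the gene, and capitals mark GC boxes, the letters GGGCGG on either strand. The Angptl2 stretch is chr2:33215711-33215960 (plus strand) and the Vegfa stretch chr17:46032378-46032627 (minus strand).
Angptl2: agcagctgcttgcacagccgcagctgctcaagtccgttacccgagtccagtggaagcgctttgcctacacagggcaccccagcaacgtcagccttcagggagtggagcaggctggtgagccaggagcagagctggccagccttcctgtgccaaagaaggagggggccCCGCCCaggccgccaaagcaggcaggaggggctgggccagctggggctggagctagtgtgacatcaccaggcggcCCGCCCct
Vegfa: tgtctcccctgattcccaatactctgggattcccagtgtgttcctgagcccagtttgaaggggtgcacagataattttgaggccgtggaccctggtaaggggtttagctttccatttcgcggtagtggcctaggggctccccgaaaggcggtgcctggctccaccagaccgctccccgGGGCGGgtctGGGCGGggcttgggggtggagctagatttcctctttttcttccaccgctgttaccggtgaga

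Each of these stretches, like the full entry of 300 bases it belongs to, held 2 GC boxes, and 35.7% of the 32851 entries of 300 bases in that table held the motif. The core of the hypoxia response element, ACGTG on either strand, occurred in 19.6% of those promoters. Among the 6 entries it occurred once, in the entry of an inner Vegfa start (chr17:46025114-46025413, minus strand), 211 bases before that start and inside a coding exon of longer Vegfa transcripts. The TATA box (TATAAA), the CArG box and the direct repeat element of PPAR receptors occurred in none of the 6 entries. A match is a description of the letters and says nothing of binding.

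Cells were clustered within each library with the 8 genes and their pathway genes kept out of the variable genes, and clusters were named from fixed markers, so each name means a class that resembles the named cells. Named classes, with other FB included, covered 8200 LI and 6885 SI cells. The text below compares 9 classes. Cycling FB (28 LI and 30 SI cells), immune cells and other FB (1597 and 461 cells, in clusters not matched between libraries) also occurred in both libraries but were not compared. The 9 classes were pericytes (522 LI and 593 SI cells), mural cells positive for Myh11 that carried pericyte and smooth muscle markers (85 and 481 cells), smooth muscle cells (SMC, 406 and 428), interstitial cells of Cajal (ICC, 264 and 32) and 5 classes of fibroblasts (FB). The FB classes were PDGFRAhi FB (663 and 339 cells), Fgfr2 FB (2024 and 1108), MHC class II FB (536 and 547) and a pair of classes without a marker name, called by shared leading genes Lsamp Cpz FB (754 and 908) and Chodl Jam2 FB (730 and 753). CD81 FB (550 cells, led by Areg, Ereg and Grem1) were named only in the LI library. Adventitial FB (1001 cells) and mesothelial cells (136 cells) were named only in the SI library. When cells were assigned by marker score instead, all of these classes occurred in both libraries. Over the other LI cells, the CD81 FB cluster scored 0.63 (mean log2) for CD81 FB markers and 0.71 for MHC class II markers. SI Lsamp Cpz FB and MHC class II FB scored 0.47 and 0.50 for CD81 FB markers.

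The classes did not match in every respect. MHC class II FB were led by Ctla2a, Fgfbp1 and Cxcl9 in LI and by Cd74, H2-Ab1 and H2-Eb1 in SI. The SI cluster of Lsamp Cpz FB was led by haemoglobin genes, and the 4 erythroid markers summed to 290 CPM there against 0.382 CPM in LI. By Xist and Y-linked UMIs, 61.9% of LI and 61.6% of SI MHC class II FB were male and so were 54.2% of CD81 FB, whereas the male share was at most 6.13% in the other named LI classes and lay between 10.2% and 31.9% in most SI classes. Male and female cells must come from different embryos. The sum of 6 endothelial markers reached 320 CPM in LI MHC class II FB, 270 CPM in CD81 FB and 176 CPM in SI MHC class II FB, nearly all of it from Ecscr, and 151 and 125 CPM in LI and SI pericytes. Their part in the results was not tested.

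**Figure D1:**
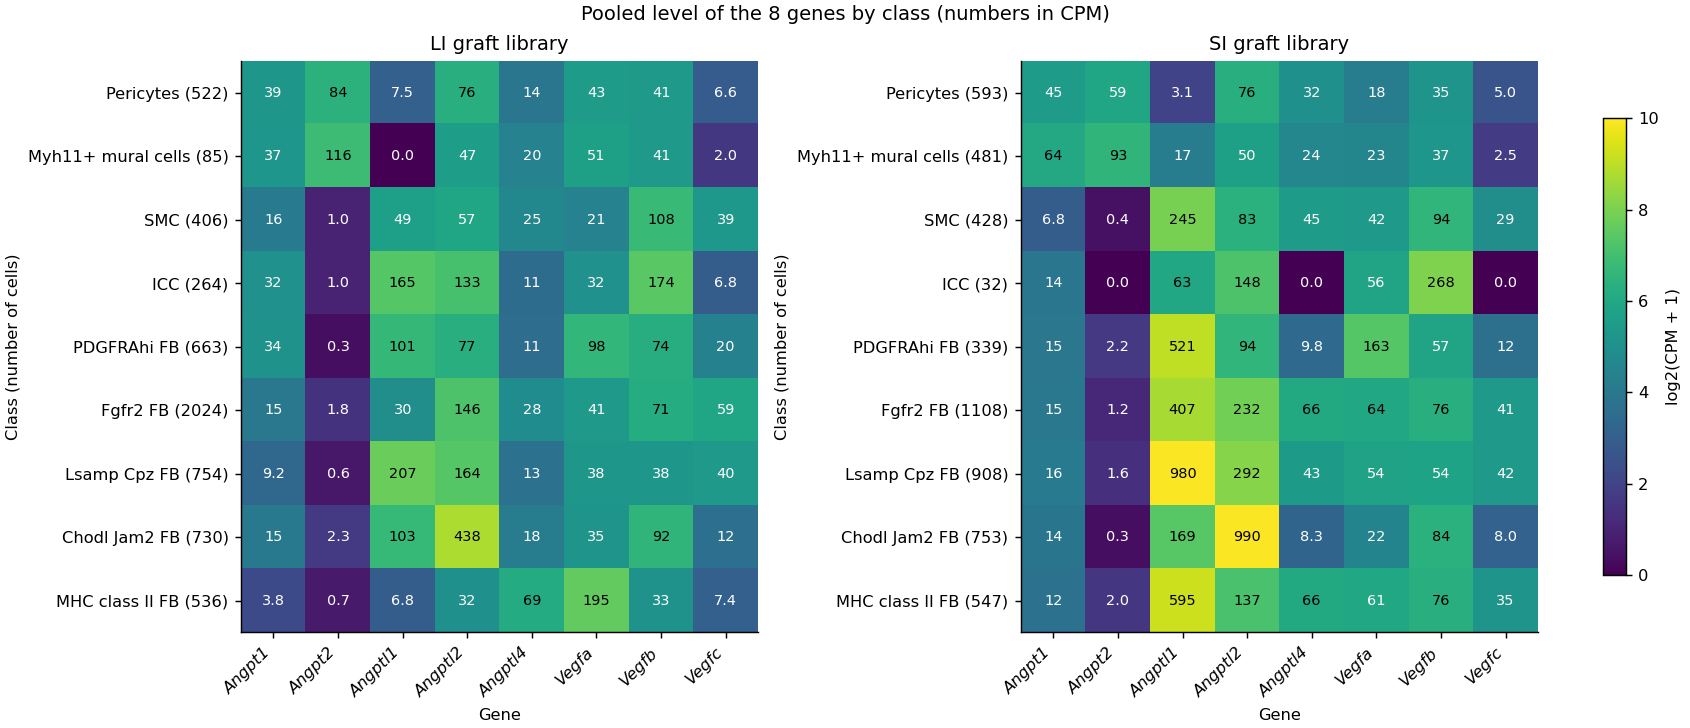
Pooled CPM of the 8 genes (columns) in the 9 classes compared (rows, with numbers of cells), for the LI graft library on the left and the SI graft library on the right, with colour showing log2(CPM + 1). Angpt2 stands out in pericytes and Myh11+ mural cells of both libraries, Angptl2 in Chodl Jam2 FB and Vegfb in ICC, whereas Angptl1 is high in nearly all SI fibroblast rows and lower in the same LI rows.

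Angpt2 was highest in the mural cells, which wrap small vessels. It was measured at 116 CPM (88 to 150) in LI and 93.1 CPM (81.4 to 106) in SI Myh11+ mural cells. In pericytes its level was 84.3 CPM (72.8 to 97.1) in LI and 59.4 CPM (50.4 to 69.5) in SI. No other paired class exceeded 2.28 CPM in either library, and over all FB the level was 1.61 CPM in LI and 1.48 CPM in SI. Among the 9 classes, Angpt2 was therefore near absent outside the mural ones in both grafts. With cells assigned by marker score the LI level in Myh11+ mural cells was 63.5 CPM, and it was between 109 and 123 CPM under the other alternatives that gave one. Myh11+ mural cells stood above pericytes by 0.46 (0.01 to 0.89) on the log2 scale in LI and by 0.64 (0.34 to 0.94) in SI, so the order of the mural classes was the same in both libraries but close to counting error in LI.

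A UMI of Angpt2 was found in 25.3% (16.4 to 36) of thinned LI Myh11+ mural cells and in 15.9% (12.7 to 19.6) of SI ones, and in 44.7% and 33.7% of these cells as sequenced. The share in pericytes was 14.7% (11.7 to 18.2) in LI and 12.5% (9.7 to 15.7) in SI after thinning and 25.3% and 19.7% before. FB gave the background, with 0.362% in LI and 0.323% in SI after thinning (0.886% and 0.874% before) at median depths of 5528.5 and 5892 UMIs, against 4038 and 3585 UMIs in pericytes. An unnamed SI cluster of 147 cells, led by Ubd, Ccl5 and Cxcl9, also held Angpt2, at 121 CPM (104 to 141), and Angpt1, at 38.3 CPM (28.6 to 50.2). Endothelial cells are a known source of Angpt2. The 6 endothelial markers summed to 151 and 125 CPM in LI and SI pericytes and to 8.15 and 19.3 CPM in LI and SI Myh11+ mural cells, and their part in the Angpt2 counts was not tested.

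Angpt1 was spread more widely. Its level in pericytes was 38.6 CPM (31 to 47.6) in LI and 45.2 CPM (37.4 to 54.1) in SI. In Myh11+ mural cells it was 36.7 CPM (21.7 to 58) in LI and 64.4 CPM (54.7 to 75.3) in SI. These mural classes did not differ beyond counting error in LI (log2 difference 0.07, interval -0.65 to 0.87) and Myh11+ mural cells were the higher in SI (0.50, 0.15 to 0.85). Unlike Angpt2, Angpt1 was also counted in FB, at 12.6 CPM (11.5 to 13.6) in LI and 12.5 CPM (11.4 to 13.8) in SI over all FB. Among FB classes the highest level was that of LI PDGFRAhi FB, the subset that lies beneath the epithelium in intact intestine, at 34.1 CPM (28.3 to 40.9) against 14.7 CPM (9.7 to 21.4) in SI, and the lowest that of LI MHC class II FB, at 3.79 CPM (2.41 to 5.69) against 12.4 CPM (9.49 to 15.9) in SI. LI ICC had 32.1 CPM (22.1 to 45.1), and their interval and that of LI PDGFRAhi FB overlapped those of both LI mural classes. In SMC the level was 16.5 CPM (11.4 to 23) in LI and 6.78 CPM (4.02 to 10.7) in SI.

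Thinned shares of cells with an Angpt1 UMI were 7.58% (5.36 to 10.3) in LI and 6.04% (4.11 to 8.51) in SI pericytes, and 2.7% and 2.55% in FB. As sequenced the shares were 14.4% and 15.9% in pericytes and 6.95% and 6.55% in FB. The pericytes of the 2 grafts thus overlapped in level and in share, whereas the LI and SI intervals of PDGFRAhi FB, SMC, MHC class II FB and Lsamp Cpz FB stood apart, the last with 9.17 CPM (6.76 to 12.2) in LI and 16.2 CPM (13.2 to 19.6) in SI. In female cells the CPM intervals of all 4 classes overlapped. The log2 difference of LI from SI stayed off 0 in SMC (1.09, 0.16 to 2.07) and PDGFRAhi FB (0.81, 0.04 to 1.67). Its interval held 0 in MHC class II FB (-1.86, -4.08 to 0.91) and in Lsamp Cpz FB (-0.03, -0.61 to 0.56). The latter had 9.39 CPM in LI and 9.60 CPM in SI.

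**Figure D2:**
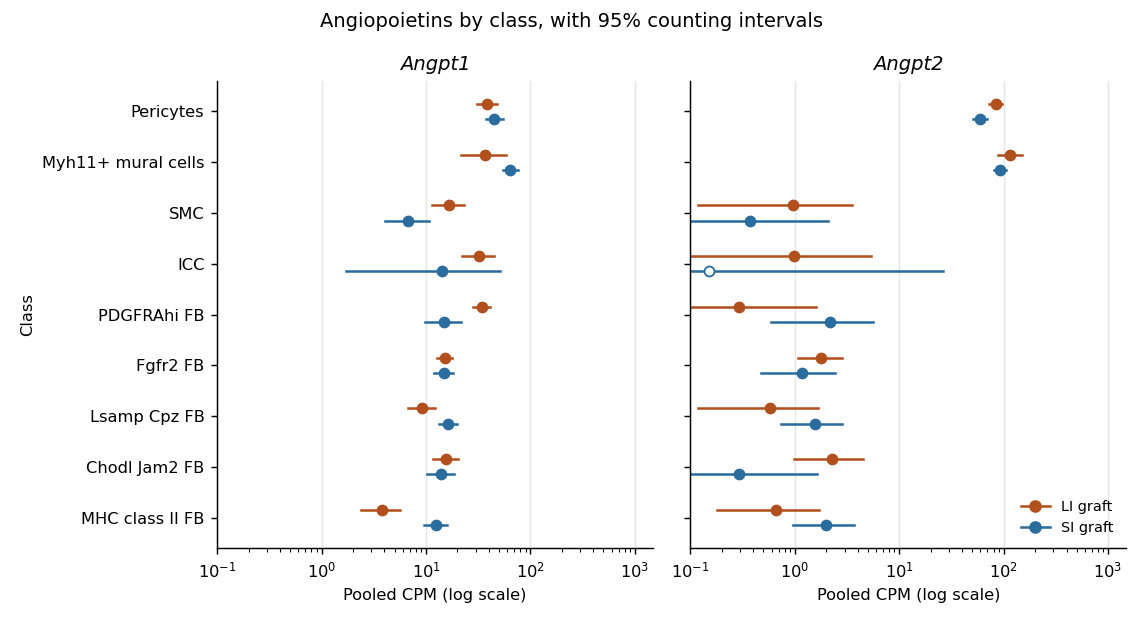
Pooled CPM (log scale) of Angpt1 and Angpt2 in the 9 classes compared, with LI in orange and SI in blue. Lines are 95% counting intervals, cut at the left edge where they reach lower values, and an open point near the left edge marks a class with 0 UMIs. The pericyte and Myh11+ rows hold the highest levels in both panels, with Angpt2 below 2.5 CPM in all other rows.

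Angptl1, a secreted glycoprotein reported to restrain vessel growth, differed most between the grafts. The level over all FB was 75.4 CPM (72.8 to 78) in LI and 502 CPM (495 to 510) in SI, a log2 ratio of LI over SI of -2.72 (-2.77 to -2.67). Lsamp Cpz FB had the highest level among the paired classes in both libraries, at 207 CPM (195 to 220) in LI and 980 CPM (956 to 1004) in SI. They stood above the next class, ICC at 165 CPM, by 0.33 (0.09 to 0.57) on the log2 scale in LI and above MHC class II FB by 0.72 (0.66 to 0.78) in SI. The erythroid markers named above were high in the SI cluster of this class, and their part in its Angptl1 level was not tested. In the other 4 paired FB classes of SI those markers summed to at most 1.47 CPM, and Angptl1 was between 169 and 595 CPM.

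The widest gap was in MHC class II FB, where Angptl1 was at 6.76 CPM (4.85 to 9.18) in LI and 595 CPM (574 to 617) in SI. In Fgfr2 FB the level was 29.9 CPM (26.6 to 33.5) in LI and 407 CPM (391 to 424) in SI, a log2 ratio of -3.72 (-3.90 to -3.55). PDGFRAhi FB had 101 CPM (90.6 to 112) in LI and 521 CPM (488 to 555) in SI, and SMC 49 CPM (39.9 to 59.5) and 245 CPM (226 to 264). All 4 classes were higher in SI, with intervals far apart.

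Chodl Jam2 FB differed less, at 103 CPM (92.7 to 114) in LI and 169 CPM (156 to 184) in SI. The mural classes carried little Angptl1 in either graft. Pericytes had 7.46 CPM (4.35 to 12) in LI and 3.06 CPM (1.32 to 6.04) in SI. No UMI was counted in the 85 LI Myh11+ mural cells (interval 0 to 7.52 CPM), against 17.2 CPM (12.4 to 23.3) in SI. ICC ran the other way, with 165 CPM (141 to 191) in LI and 63.5 CPM (29 to 121) in the 32 SI cells.

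After thinning, 22.2% (19.3 to 25.4) of LI and 73.1% (70.1 to 76) of SI Lsamp Cpz FB had an Angptl1 UMI, and before thinning 39.1% and 90.9%. In Fgfr2 FB the thinned shares were 3.56% and 46.1% (5.98% and 66.5% before). Pericytes, at 0.421% in LI and 0.604% in SI (0.958% and 1.18% before), gave the background. Within SI, the adventitial FB fell into 2 clusters with different levels, 143 CPM (133 to 155) in 650 cells led by Pi16 and 881 CPM (848 to 915) in 351 cells with Scara5, and an SI cluster of other FB (461 cells led by Wif1, Col7a1 and Inhba) had 34.1 CPM (27.4 to 41.8). High Angptl1 was therefore not shared by all SI fibroblasts.

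Angptl2, which is known from inflamed adipose tissue and acts through integrins, kept its class pattern in both grafts. Chodl Jam2 FB held the highest level, 438 CPM (416 to 460) in LI and 990 CPM (957 to 1024) in SI. They exceeded the second class, Lsamp Cpz FB (164 CPM in LI and 292 CPM in SI), by 1.41 (1.29 to 1.53) on the log2 scale in LI and by 1.76 (1.68 to 1.84) in SI. Angptl2 was the only one of the 8 genes with the same highest class in both libraries and at least 2-fold over the next class in both. Among 10162 genes that reached 10 CPM in some class of each library, 3.85% did so.

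Between the grafts, Angptl2 over all FB was 136 CPM (133 to 140) in LI and 283 CPM (278 to 289) in SI, a log2 ratio of -1.05 (-1.10 to -1.003). MHC class II FB differed most, with 31.8 CPM (27.5 to 36.7) in LI and 137 CPM (127 to 148) in SI. Pericytes could not be told apart, with 76.4 CPM (65.5 to 88.6) in LI and 76.2 CPM (66 to 87.6) in SI, a log2 ratio of 0.00 with an interval of -0.29 to 0.30. Of thinned Chodl Jam2 FB, 51% (47.2 to 54.8) in LI and 82.5% (79.5 to 85.3) in SI had a UMI of Angptl2 (72.1% and 92.2% before thinning). In pericytes the shares were 13.7% and 17.3% (26.4% and 25.5% before).

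As clustered here, Angptl4 had its highest levels in clusters that were not matched between the libraries. The highest levels of any fibroblast cluster were in 2 LI clusters of other FB, 232 CPM (219 to 246) in 364 cells led by Cthrc1, Prg4 and Ptx3 and 113 CPM (106 to 121) in 1233 cells led by Myoc, Lpl and Zim1. Lpl, the enzyme that Angptl4 inhibits, was thus a leading gene of the second of these clusters. The first was deeper than most, with a median of 14734.5 UMIs per cell. Its mean log2 for the adventitial markers was 1.30, and that of the SI adventitial cluster with Scara5 was 1.29. None of those markers was among its 10 leading genes, which naming required. At resolution 1.6 and with marker scores, adventitial FB had the highest LI level of Angptl4 among the classes compared. In SI the highest level was that of mesothelial cells, at 137 CPM (119 to 156).

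Among the paired classes MHC class II FB led in both libraries, at 69.3 CPM (62.8 to 76.2) in LI and 66.1 CPM (59.1 to 73.6) in SI. In LI they exceeded Fgfr2 FB by 1.29 (1.07 to 1.51) on the log2 scale, and in SI they could not be told from them (0.01, -0.20 to 0.22). Fgfr2 FB had 27.7 CPM (24.6 to 31.2) in LI and 65.5 CPM (59.2 to 72.4) in SI. Lsamp Cpz FB had 12.6 CPM (9.75 to 16) in LI and 42.6 CPM (37.7 to 48) in SI, and pericytes 14.1 CPM (9.61 to 19.8) and 31.8 CPM (25.3 to 39.4). Among the classes other than ICC, only Chodl Jam2 FB were at least 2-fold higher in LI, at 17.7 CPM (13.6 to 22.7) against 8.25 CPM (5.48 to 11.9), and in female cells they were not (17.8 against 10.2 CPM). Over all FB, where the pooled LI value includes the 2 clusters of other FB, the level was 66.7 CPM (64.4 to 69.2) in LI and 40.7 CPM (38.6 to 42.9) in SI. Those LI clusters held 1991 of the 2980 Angptl4 UMIs of LI FB. Without other FB the direction turned, with 30.5 CPM (28.6 to 32.5) in LI and 42.8 CPM (40.6 to 45.2) in SI.

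**Figure D3:**
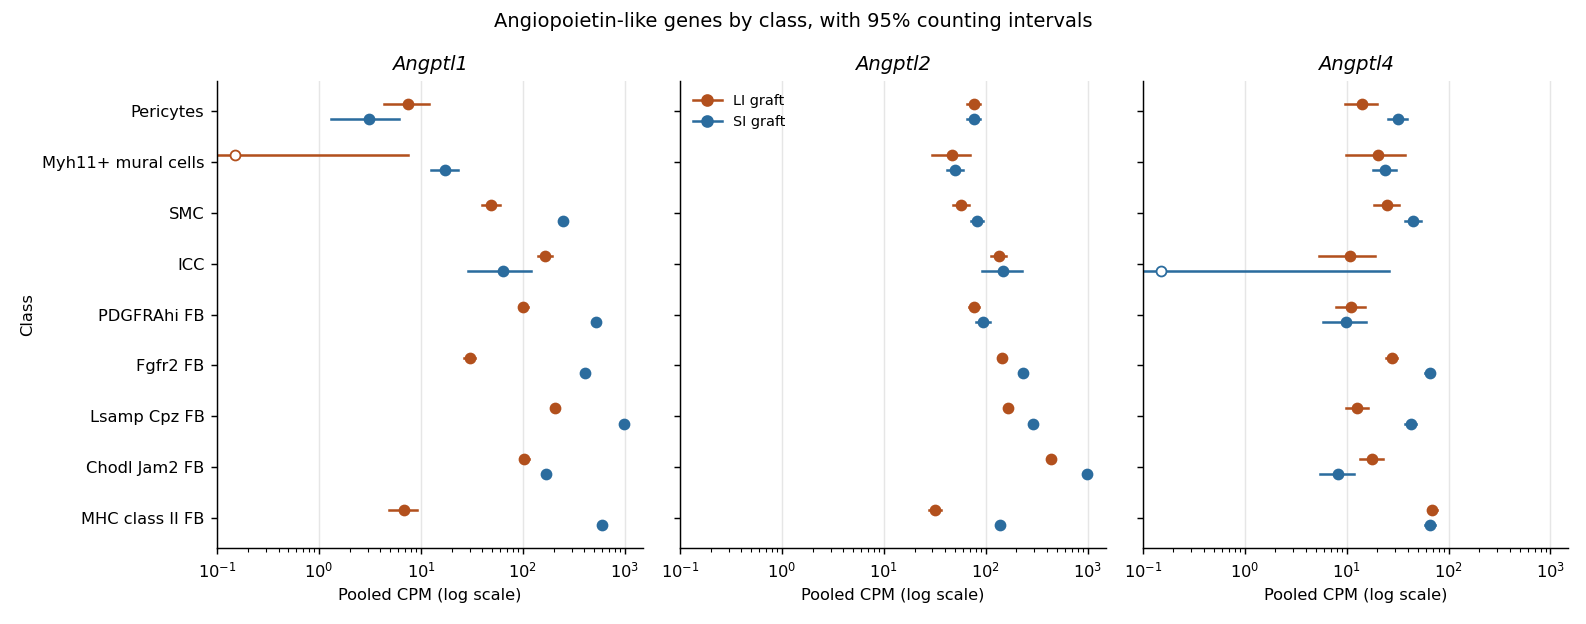
Pooled CPM (log scale) of Angptl1, Angptl2 and Angptl4 in the 9 classes compared, with LI in orange and SI in blue. Lines are 95% counting intervals and open points mark classes with 0 UMIs. The SI points of Angptl1 lie to the right of the LI points in the fibroblast and SMC rows, Chodl Jam2 FB are the top row of Angptl2 in both libraries, and the Angptl4 points of MHC class II FB coincide.

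Vegfa had different leading classes in the grafts. Among the paired classes its level was highest in MHC class II FB of LI, at 195 CPM (184 to 206) against 61.5 CPM (54.8 to 68.7) in SI. The SI library had its highest level in PDGFRAhi FB, at 163 CPM (145 to 183) against 98.4 CPM (88.2 to 109) in LI. CD81 FB of LI had 238 CPM (223 to 254), the highest value of Vegfa in any named class. In LI, MHC class II FB exceeded PDGFRAhi FB by 0.98 (0.80 to 1.15) on the log2 scale, and in SI, PDGFRAhi FB exceeded the next class, Fgfr2 FB, by 1.34 (1.12 to 1.56). With both libraries clustered together, MHC class II FB of LI had 77.3 CPM and no longer led.

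Both mural classes had more Vegfa in LI, with 43.5 CPM (35.3 to 52.9) in LI and 17.6 CPM (12.9 to 23.5) in SI pericytes and 50.9 CPM (33 to 75.2) and 23 CPM (17.4 to 29.8) in Myh11+ mural cells. Among female cells only, LI pericytes differed from SI ones by 0.53 (-0.12 to 1.21) on the log2 scale and LI Myh11+ mural cells by 0.78 (0.01 to 1.53), both under 2-fold. Chodl Jam2 FB had 35.1 CPM (29.2 to 41.9) in LI and 21.5 CPM (16.9 to 27.1) in SI. Beside PDGFRAhi FB, a lower level in LI than in SI was measured in Fgfr2 FB (41.2 against 63.7 CPM), Lsamp Cpz FB (37.8 against 54 CPM) and SMC (20.8 against 41.8 CPM). A Vegfa UMI was found in 30.8% (26.9 to 34.9) of thinned CD81 FB, in 27.4% (23.5 to 31.5) of LI and 10.8% (8.32 to 13.8) of SI MHC class II FB, and in 15.3% (12.7 to 18.4) of LI and 26.2% (21.3 to 31.6) of SI PDGFRAhi FB. Unthinned shares were 56.4%, 62.9%, 34.7%, 32.6% and 48.1% in the same order. For comparison, the thinned share was 2.87% in LI SMC and 3.02% in SI pericytes (8.37% and 6.07% before).

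The Vegfa difference over all FB moved with the sex of the cells. In female FB (5612 LI and 3006 SI cells) the level was 56.6 CPM (54.1 to 59.2) in LI and 58.3 CPM (54.7 to 62) in SI, a log2 ratio of -0.04 (-0.15 to 0.07). In male FB (657 and 1226 cells) it was 206 CPM (195 to 217) in LI and 75.8 CPM (70.6 to 81.3) in SI, a log2 ratio of 1.43 (1.30 to 1.56). LI pericytes showed the same split, with 192 CPM (130 to 272) in 32 male cells and 29.3 CPM (22.2 to 38.1) in 433 female cells, whereas SI pericytes had 5.02 CPM (1.04 to 14.7) in 120 male and 20 CPM (13.3 to 28.9) in 302 female cells. Within MHC class II FB the log2 ratio was 1.58 (0.80 to 2.41) in female (25 and 49 cells) and 1.44 (1.23 to 1.65) in male cells (332 and 337). Female LI cells of that class had 166 CPM (124 to 219) against 55 CPM in SI, and those of CD81 FB (37 cells) 132 CPM (90.4 to 187). With male cells gathered in few LI classes and grafts pooled, sex, embryo and class cannot be told apart here.

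Vegfb was highest in ICC, the pacemaker cells of gut muscle, in both libraries, at 174 CPM (150 to 202) in LI and 268 CPM (190 to 368) in the 32 SI cells. They exceeded the next class, SMC at 108 CPM (94.4 to 123) in LI and 93.7 CPM (82.5 to 106) in SI, by 0.68 (0.39 to 0.97) on the log2 scale in LI and by 1.51 (0.98 to 2.0001) in SI. Of thinned ICC, 26.7% (21.3 to 32.6) in LI and 46.4% (27.5 to 66.1) in SI had a UMI of Vegfb (44.7% and 68.8% before thinning), against 6.74% and 7.85% of pericytes (14.9% and 13% before). Over all FB the level was 64.4 CPM (62 to 66.8) in LI and 66 CPM (63.3 to 68.8) in SI, and the intervals overlapped. Intervals of LI and SI stood apart in MHC class II FB, with 33.3 CPM (28.9 to 38.3) in LI and 76 CPM (68.6 to 84.1) in SI, and in Lsamp Cpz FB, with 38.2 CPM (33.1 to 43.9) and 54.1 CPM (48.6 to 60.1). PDGFRAhi FB and ICC had overlapping intervals but log2 differences of LI from SI off 0, above it in PDGFRAhi FB (0.37, 0.04 to 0.71) and below it in ICC (-0.62, -1.13 to -0.07). With cells assigned by marker score the level in ICC was 112 CPM in LI and 107 CPM in SI, and with the stricter filter and in female cells, where SMC led, no ICC level could be given for both libraries.

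Vegfc was highest in Fgfr2 FB in LI and in Lsamp Cpz FB and Fgfr2 FB in SI. Fgfr2 FB had 59.1 CPM (54.5 to 64.1) in LI and 40.9 CPM (35.9 to 46.4) in SI. Lsamp Cpz FB had 40.1 CPM (34.9 to 45.9) in LI and 41.5 CPM (36.7 to 46.8) in SI, and SMC 39.3 CPM (31.2 to 48.8) and 29.4 CPM (23.2 to 36.7). Fgfr2 FB led in LI by 0.55 (0.32 to 0.78) on the log2 scale, and in SI Lsamp Cpz FB and Fgfr2 FB could not be ordered (0.02, -0.23 to 0.27).

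Mural cells carried almost no Vegfc, with 6.59 CPM in LI and 4.98 CPM in SI pericytes. MHC class II FB again differed between the grafts, with 7.42 CPM (5.42 to 9.93) in LI and 34.9 CPM (29.9 to 40.5) in SI, where they stood above SMC. The level over all FB was 28.2 CPM (26.6 to 29.8) in LI and 29.6 CPM (27.8 to 31.5) in SI. Of thinned Fgfr2 FB, 9.66% (8.39 to 11.1) in LI and 8.94% (7.3 to 10.8) in SI had a UMI (22% and 18.5% before thinning).

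**Figure D4:**
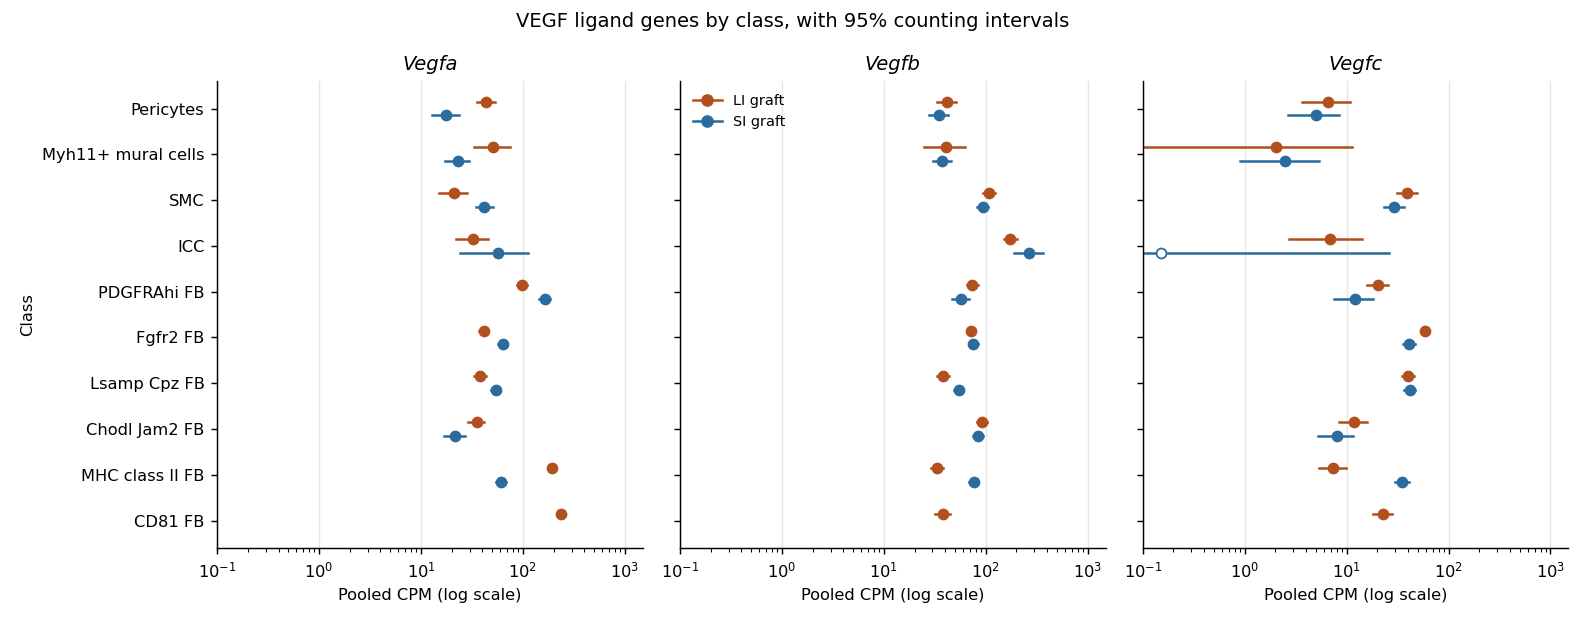
Pooled CPM (log scale) of Vegfa, Vegfb and Vegfc in the 9 classes compared and in CD81 FB of the LI library, with LI in orange and SI in blue. Lines are 95% counting intervals, cut at the left edge where they reach lower values, and open points mark classes with 0 UMIs. Vegfa peaks in CD81 and MHC class II FB of LI and in PDGFRAhi FB of SI, and Vegfb peaks in ICC of both libraries.

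Of the 8 genes, 5 had their highest paired class in common between the libraries (Angpt2, Angptl1, Angptl2, Angptl4 and Vegfb), against 41.8% of 10162 genes. Angpt1, Vegfa and Vegfc did not. In FB as a whole, 7 of the 8 genes reached 10 CPM in at least 1 library, Angpt2 being the exception. Angptl1 and Angptl2 were at least 2-fold higher in SI, where the background was 1.78% of 8630 genes, and none was at least 2-fold higher in LI, where the background was 2.05% (3.84% in either direction). The log2 ratios of LI over SI of the others were 0.70 (0.61 to 0.79) for Angptl4 (-0.48, -0.59 to -0.36, without other FB), 0.47 (0.40 to 0.54) for Vegfa, 0.00 (-0.17 to 0.18) for Angpt1, -0.04 (-0.12 to 0.04) for Vegfb and -0.07 (-0.19 to 0.05) for Vegfc. Without other FB the ratio of Vegfb was -0.15 (-0.24 to -0.06). The members had been chosen with such differences known, so the comparison with the background supports nothing.

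Within single classes, MHC class II FB held the most differences. There 5 of the 7 genes at 10 CPM or more (Angpt1, Angptl1, Angptl2, Vegfb and Vegfc) were at least 2-fold higher in SI, against 11.4% of all genes in that class, and Vegfa was higher in LI, against 7.48%. As given above, this class was led by different genes in the 2 libraries. In pericytes Vegfa was higher in LI (log2 ratio 1.26, 0.76 to 1.77; background 2.59%), though not by 2-fold in female cells, and Angptl4 in SI (-1.12, -1.72 to -0.55; background 1.74%). In Lsamp Cpz FB Angptl1 and Angptl4 were higher in SI (background 2.41%) and none in LI (1.64%), and likewise in Fgfr2 FB (backgrounds 2.46% and 2.69%).

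Chodl Jam2 FB had Angptl2 higher in SI (background 3.4%) and Angptl4 higher in LI (background 3.68%). PDGFRAhi FB and SMC each had Angptl1 higher in SI (backgrounds 5.74% and 3.64%) and Angpt1 higher in LI (4.92% and 3.25%). Myh11+ mural cells had Angptl1 higher in SI (background 10.5%) and Vegfa in LI (4.56%). In female cells alone, Angpt1 in PDGFRAhi FB (0.81, 0.04 to 1.67), Angptl4 in Chodl Jam2 FB (0.76, 0.11 to 1.42), Vegfb in MHC class II FB (-0.81, -1.83 to 0.14) and Vegfa in Myh11+ mural cells were under 2-fold, and Vegfc passed 2-fold in Chodl Jam2 FB (1.11, 0.27 to 1.97) and PDGFRAhi FB (2.57, 0.97 to 4.10). These Vegfc ratios rest on few SI UMIs, 12 in 556 female Chodl Jam2 FB and 2 in 138 female PDGFRAhi FB. Leaving out ICC, for which the SI library held 32 cells, the interval of Angptl1 lay below 0 in 7 of 8 classes, that of Angptl2 in 6, and that of Vegfa below 0 in 4 and above 0 in 4.

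By sex, Angptl1 was lower in LI in female FB, at 93.4 CPM (90.2 to 96.7) against 412 CPM (403 to 422), and in male FB, at 10.5 CPM (8.14 to 13.3) against 614 CPM (599 to 629). Angptl2 was lower in LI in both as well, with log2 ratios of -1.11 (-1.16 to -1.06) in female and -2.34 (-2.54 to -2.15) in male cells. Angptl4 was higher in LI in female FB (1.09, 0.96 to 1.22), but without other FB, which held 1925 of the 2382 female LI UMIs, it was lower (-0.75, -0.92 to -0.57). In male FB it did not differ beyond counting error (0.11, -0.08 to 0.31). Over all FB, Angpt1 and Vegfc had opposite signs in female (0.40 and 0.23) and male cells (-1.30 and -1.42). Of the 657 male LI FB, 332 were MHC class II FB and 298 CD81 FB, whereas male SI FB were spread over more classes. Within MHC class II FB (25 LI and 49 SI female cells) the ratios were below 0 in both sexes. That of Angpt1 was -1.86 (-4.08 to 0.91) in female and -1.46 (-2.19 to -0.72) in male cells. That of Vegfc was -1.996 (-3.77 to -0.47) and -2.01 (-2.55 to -1.48). The part of class in the opposite signs was not tested.

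**Figure D5:**
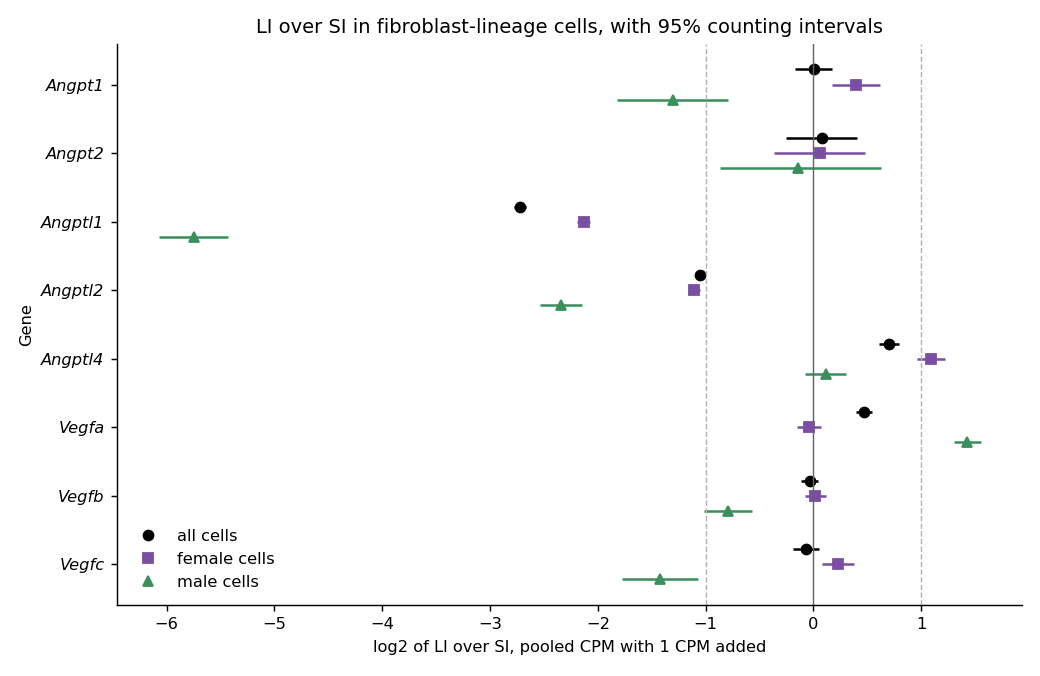
Log2 ratio of LI over SI (pooled CPM with 1 CPM added) of the 8 genes over fibroblast-lineage cells, for all cells (black circles), female cells (purple squares) and male cells (green triangles). Lines are 95% counting intervals and dashed lines mark 2-fold. Angptl1 and Angptl2 lie left of 0 in all 3 sets, and Vegfa is at -0.04 in female and at 1.43 in male cells.

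Among the other ligands of these families, 4 of 7 reached 10 CPM in FB. Angptl7, known from cornea and joint tissue, was higher in LI (17.4 against 2.53 CPM), and Pgf, a ligand of Flt1, was higher in SI (15.3 against 31.8 CPM). Angptl7 was a leading gene of the 1233 LI cells of other FB led by Myoc, Lpl and Zim1, which had no SI match. Its level without other FB was not computed. Pgf was also a gene of Myh11+ mural cells, with 104 CPM in LI and 153 CPM in SI, and Angpt4 was at 75.4 CPM in LI and 11.1 CPM in SI Myh11+ mural cells. Figf (Vegfd) hardly differed in FB (16.1 against 15 CPM). Over the 4 ligands that reached 10 CPM in FB, whose FB values are not all given here, the median log2 ratio was 0.53, against -0.02 over all genes.

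Of 7 receptor and coreceptor genes, 3 reached 10 CPM in FB. The coreceptors Nrp1 (158 CPM in LI and 193 CPM in SI) and Nrp2 (119 and 122 CPM) were the abundant ones, and Flt1 was higher in LI (10.4 against 2.71 CPM). In MHC class II FB, Flt1 was at 46.9 CPM in LI and 3.59 CPM in SI (background 7.48%), whereas Nrp1 (60.7 against 137 CPM) and Nrp2 (14.2 against 89.4 CPM) were at least 2-fold higher in SI (background 11.4%). Both coreceptors were also higher in SI in Myh11+ mural cells (background 10.5%). Pericytes carried Flt1 in both grafts (23.3 and 25.7 CPM) and Kdr at 22.8 CPM in LI against 6.13 CPM in SI. The 6 endothelial markers summed to 151 and 125 CPM in the same pericytes, and their part in the receptor counts was not tested. None of the 3 genes of Vegfc processing (Ccbe1, Adamts3 and Adamts14) reached 10 CPM in FB as a whole, and Ccbe1, a cofactor of Vegfc cleavage, was at 13.7 CPM in LI and 5.89 CPM in SI Chodl Jam2 FB.

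Of 12 regulators and targets of the hypoxia response, 10 reached 10 CPM in FB. Of these, 4 were at least 2-fold higher in LI (background 2.05%) and none in SI (background 1.78%). They were Slc2a1, a glucose transporter (47.3 against 16.2 CPM), Ldha, lactate dehydrogenase (528 against 245 CPM), Pgk1, a glycolytic kinase (10.5 against 4.67 CPM), and Bnip3, a mediator of mitophagy (42.3 against 17.6 CPM). The median log2 ratio of the 10 was 0.58, against -0.02 over all genes. By class the count was largest in MHC class II FB, with 6 of 11 genes higher in LI (background 7.48%) and 2 in SI (background 11.4%). PDGFRAhi FB had 4 of 9 higher in LI (background 4.92%), pericytes 2 of 11 (2.59%) and Fgfr2 FB 1 of 8 (2.69%), with none in SI. SMC had 1 of 8 each way (3.25% and 3.64%) and Lsamp Cpz FB none of 8. Higher in SI only were 1 of 9 in Chodl Jam2 FB (3.4%) and 2 of 8 in Myh11+ mural cells (10.5%). The pooled LI FB include CD81 FB and other FB, and these genes were not compared by sex. Hif1a itself differed by less than 2-fold in FB (114 against 80.8 CPM).

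Of 8 PPAR and lipase genes, 5 reached 10 CPM in FB and none differed by 2-fold. Lpl was the nearest, at 394 CPM in LI and 227 CPM in SI, a log2 ratio of 0.79 (0.75 to 0.83). The pooled LI value includes the 1233 cells of other FB that Lpl helped to lead, and the ratio without other FB was not computed.

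The genes whose levels followed each member most closely were ranked by Pearson's r of log2(CPM + 1) over 18 points, the 9 classes in the 2 libraries, among 10146 genes. The points of a library share its chemistry, depth and grafts, so r is a description. The closest were Rasl12 (0.98), Pcdh1 (0.98) and Map7d2 (0.97) for Angpt2, Lysmd2 (0.91), Qpct (0.86) and Hmcn2 (0.86) for Angptl1, and Car8 (0.91), Psap (0.91) and Man2a2 (0.90) for Angptl2. For Vegfc they were Apoe (0.93), Stxbp6 (0.92) and Lepr (0.92), and for Vegfb Lynx1 (0.92) and Setd7 (0.91) were among the closest. Angpt1 (Mynn 0.88, Phlpp1 0.87, Gpbp1 0.86) and Angptl4 (Rpl29 0.87, Rpl3 0.86, Cxcl2 0.85) came next, and for Vegfa the closest included Osr2 (0.73) and Tram2 (0.73). Among the members themselves, r was 0.72 between Angpt1 and Angpt2, 0.60 between Angptl4 and Vegfc, 0.58 between Angptl1 and Angptl2 and -0.71 between Angptl1 and Angpt2.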

How the data were processed

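Cells had been captured on the 10x Genomics Chromium system. The authors aligned the reads to mm10 with CellRanger (3.1.0 in the submitters' processing notes) and deposited raw counts of UMIs per gene and barcode, with no normalization. The annotation release was not given in the sources used here.

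Barcodes with fewer than 500 genes or over 10% mitochondrial UMIs were removed. The doublet caller Scrublet (scanpy 1.11.5) called 0 LI and 1 SI barcode by its own threshold, so the highest scores were removed at 0.8% per 1000 barcodes (991 LI and 651 SI cells). Each library was clustered in Seurat 5.3.0 under R 4.3.3 with 2000 variable genes, cell cycle regressed out, 30 principal components, 20 neighbours, the Louvain algorithm and a resolution of 0.8. Variable genes could not include the 8 genes, 37 pathway genes or any sex-linked or mitochondrial gene. A cluster was named from fixed markers and needed at least 1 of its markers among its 10 leading genes. Its thresholds were set with the clusters in view. Unmatched FB clusters were paired between libraries where they shared at least 3 of 10 leading genes. The clusters left unnamed held 682 LI and 374 SI cells, part of them of low depth.

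Counts of a class were summed over cells and divided by its UMIs. Ratios are log2 with 1 CPM added, and a gene was called at 2-fold or more with at least 10 CPM in 1 library. Intervals are exact Poisson (CPM), Clopper-Pearson (shares) and exact binomial (ratios). The ratio and its interval were checked on simulated counts. Genes outside the 8 were named from pathway lists and, for likeness, as the 3 highest correlations, of which some are not reported here. The 8 genes and all lists were chosen with earlier results of these data known. Alternatives changed the filters, doublet removal, clustering, class assignment, scaling, minimum level, pseudocount and sex of the cells.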

Additional observations from a re-analysis of the deposited data

Results flagged for a closer look

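For Angpt1 and Angptl4 the LI over SI difference was at least 2-fold in opposite directions in 2 classes of 50 or more cells in both libraries, with counting intervals on either side of 0, and the difference between the classes was not tested. Angpt1 had a log2 ratio of 1.17 (0.38 to 1.96) in SMC and of -1.48 (-2.08 to -0.88) in MHC class II FB, and in female cells of the latter it was -1.86 (-4.08 to 0.91). Angptl4 had a log2 ratio of 1.02 (0.40 to 1.64) in Chodl Jam2 FB and of -1.68 (-2.06 to -1.31) in Lsamp Cpz FB. In female cells the ratio in Chodl Jam2 FB was 0.76 (0.11 to 1.42), under 2-fold. Other genes also had intervals on both sides of 0 in different classes, as Vegfa above, without reaching 2-fold both ways in classes of that size. The MHC class II FB of both libraries were mostly male, and the SI Lsamp Cpz FB carried haemoglobin counts, as given above, and their part in these values was not tested.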

How the results depend on the processing

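No paired analysis was possible because there is 1 library per group, and for the same reason no library could be left out. Each of 15 alternatives was run in turn. The number of genes with the same highest class in both libraries was 5, and 3 with the looser barcode filter and 3 with doublets kept, where no mural class was named in both libraries and Fgfr2 FB led for Angptl4 in SI. It was between 4 and 7 under the others. The number at least 2-fold apart in FB was 2, and 1 with both libraries clustered together, where the log2 ratio of Angptl2 was -0.91. In female cells it was 3, with Angptl4 added. Without other FB, an alternative chosen after seeing the data, it was 2, and Angptl4 turned to -0.48 in all and -0.75 in female cells. Over the 15 alternatives the log2 ratio of LI over SI in FB ranged from -2.86 to -2.13 for Angptl1, from -1.11 to -0.91 for Angptl2, from 0.41 to 1.09 for Angptl4 and from -0.04 to 0.53 for Vegfa, whose lowest value was that of female cells. Angptl1, Angptl2 and Vegfb had the same highest class in both libraries under all 15 alternatives, Angpt2 under 12, Angptl4 under 5, Angpt1 and Vegfc under 3 each and Vegfa under 1. That class itself changed to CD81 FB for Angptl1 and Angptl2 with marker scores, to Lsamp Cpz FB for Angptl2 at resolution 0.4, and to SMC for Vegfb with the stricter filter and in female cells. The Vegfa level of LI MHC class II FB ranged from 77.3 CPM, with both libraries clustered together, to 231 CPM, with TMM scaling. All 32 alternative shares of cells with a UMI moved, as thinning sets them. By more than the counting interval, 28 of 120 log2 ratios and 46 of 217 levels moved, with no change of sign among ratios of 2-fold or more. Levels under about 10 CPM and the 32 SI ICC rest on few UMIs, and their intervals are wide.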

Other observations

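Clusters left out of the named classes also carried some of the 8 genes. An LI cluster of 142 cells led by Lcn2 and Hand1 had 145 CPM (120 to 172) of Vegfa. The clusters of low depth had 111 CPM (90.2 to 135) of Vegfa in LI (505 cells) and 462 CPM (398 to 533) of Angptl1 in SI (227 cells), against 37.3 CPM (25.8 to 52.1) of Angptl1 in the LI cluster of low depth. Angpt2 was at 0 UMIs in all 3 of these clusters.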
